A study of Mus musculus with 12 samples.

Results

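The transcript response of Fes-/- macrophages to 4 hours of bacterial lipopolysaccharide (LPS) was described from 6 of the 12 libraries of the series, the 3 labelled Fes with LPS against the 3 labelled Fes with PBS, across all expressed genes. The libraries were chosen by their labels alone. Of 55487 genes with deposited counts, 28358 were above 0 in some library, and 15801 of these passed the filter on low counts and were tested.

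The study sequenced poly-A RNA of bone-marrow-derived macrophages, primary cells grown from mouse marrow in medium with macrophage colony-stimulating factor (M-CSF). Both groups carried the Fes-/- genotype, labelled as null for the gene of FES, a cytoplasmic tyrosine kinase of myeloid cells. The LPS group received 1 µg/mL LPS for 4 hours. The PBS group is labelled PBS at 4 hours, and the treatment description calls it untreated. The design text gives 3 mice per genotype, and each group held 3 libraries. The PBS and LPS libraries of a genotype may thus come from the same mice. The main test did not pair them, and a fit with the replicate number as a block is given as an alternative. The other 6 libraries came from Fes+/+ (wild-type) macrophages under the same conditions and are used below to test whether the Fes-/- response differed. The sources used here do not say how the allele was made or which exons it alters.

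LPS is bound by CD14 and MD-2 and is sensed by Toll-like receptor 4 (TLR4), which signals at the plasma membrane through MyD88 and from endosomes through TRIF. The MyD88 branch frees NF-kB from its IkB inhibitors and activates AP-1, and the TRIF branch activates IRF3 and the interferon-beta gene. Secreted interferon then acts back on the same cells through JAK kinases and STAT factors, and a layer of induced inhibitors limits the signal.

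Fes itself was measured first, since it checks the genotype labels. It lies on the reverse strand of GRCm38 chromosome 7, at 80377756 to 80387946. Levels are counts-per-million values (CPM) after scaling to a common library size, and 3 values in a row are replicates 1, 2 and 3. Fes was at 169, 189 and 179 CPM in wild-type PBS libraries and at 68.9, 66.4 and 70.5 CPM in Fes-/- PBS libraries, 38.3% of the wild-type mean. It was at 152, 163 and 171 CPM in wild-type LPS libraries and at 35.1, 33.5 and 32.9 CPM in Fes-/- LPS libraries, 20.9% of the wild-type mean. Both genotypes were apart in both conditions, and Fes transcript was present in every Fes-/- library. Within Fes-/- cells it fell with LPS by 1.02 on the log2 scale (SE 0.07, adjusted p = 5.67e-09, edgeR quasi-likelihood test).

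LPS changed most of the transcriptome of Fes-/- macrophages. Of 15801 genes tested, 11574 (73.2%) had an adjusted p under 0.05, of which 5424 (34.3%) rose and 6150 (38.9%) fell. At least 2-fold changes numbered 3067 (19.4%) upward and 3805 (24.1%) downward, and at least 4-fold changes 1823 (11.5%) upward and 1784 (11.3%) downward. In 5730 genes (36.3%) all 3 LPS libraries lay above all 3 PBS libraries, and in 6475 (41%) they lay below. Groups of 3 libraries were compared, and the p-values measure the spread between these libraries.

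The induced genes took up a large share of the RNA sequenced. Genes that rose at least 4-fold held 4.89% to 6.09% of all counts in the PBS libraries and 39.5% to 40.6% in the LPS libraries. Interferon-stimulated antiviral genes alone went from 0.367% to 0.669% of counts at rest to 7.01% to 7.36%. Chemokine genes went from 0.113% to 0.13% to between 2.72% and 3.2%. Genes with at least 1 TPM (a transcripts-per-million level, which accounts for transcript length) numbered 13153 to 13320 in PBS and 11544 to 11629 in LPS libraries.

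Because of this shift, small changes depend on the scaling. TMM factors, which centre the bulk of the genes, were 1.38 to 1.4 in Fes-/- PBS libraries and 0.728 to 0.731 in LPS libraries. Scaled to library totals alone, log2 changes were lower by a median of 0.934, 2510 genes rose (15.9%) and 11064 fell (70%), and 18.5% of called genes were higher in place of 46.9%. The 2510 genes also rose with TMM, the 6150 genes that fell with TMM also fell on totals, and 1675 genes rose with TMM and fell on totals. All log2 changes below use TMM, so a change reads relative to the bulk of the genes. Named genes that rose with TMM and not on library totals are marked. Counts of list members below stand beside the 34.3% of all genes tested that rose and the 38.9% that fell with TMM. The calls of Batf3, Bcl2, Ccnb1, Egln3, Fh1, H2-DMb2, Ikbkg and Ripk3, given below, were each lost on leaving out some single library, with edgeR adjusted p-values from 0.0505 to 0.153.

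**Figure D1:**
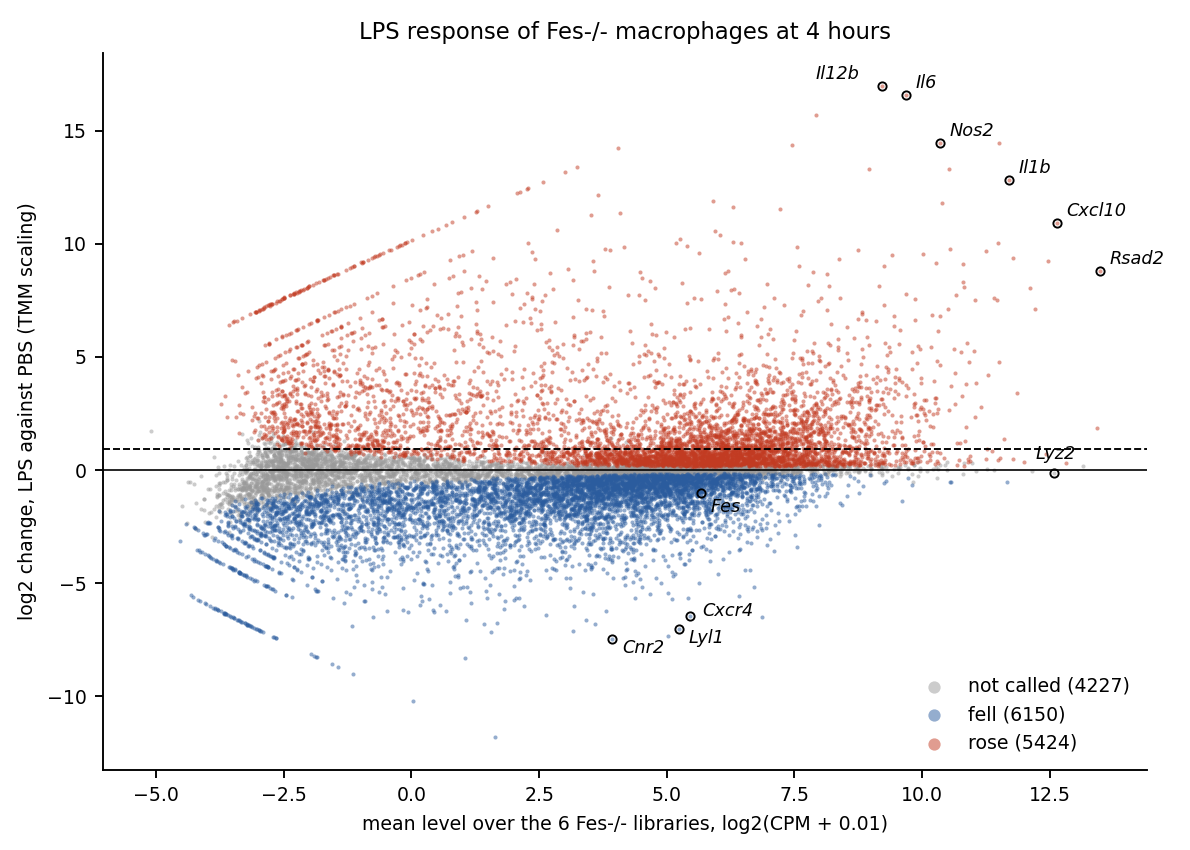
Each point is 1 of 15801 tested genes of Fes-/- macrophages, with its mean level over the 6 libraries (log2(CPM + 0.01), x axis) and its log2 change with LPS after TMM scaling (y axis); called genes that rose are red, those that fell blue and the others grey. The dashed line at 0.934 is where a change would be 0 on library totals, and the named genes at the top reach changes of over 8.

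The most abundant transcripts were exchanged. At rest the highest mean levels per transcript length belonged to Lyz2 (23316 TPM), mt-Co1 (19995 TPM), Ftl1 (13689 TPM), B2m (10557 TPM) and Tmsb4x (10170.2 TPM). These encode lysozyme, a subunit of cytochrome oxidase, the ferritin light chain, the light chain of class I MHC and thymosin beta. After LPS the highest belonged to the chemokine genes Ccl3 (22419 TPM) and Ccl4 (17957 TPM), to beta-actin (Actb, 15721 TPM), to the chemokine gene Cxcl10 (13713 TPM) and to the antiviral gene Rsad2 (12813 TPM). At rest Ccl3, Ccl4, Cxcl10 and Rsad2 had means of 66.2, 43.4, 14.1 and 58.0 TPM, while Actb was already at 8445 TPM. Of the leaders at rest, B2m had a mean of 9676 TPM under LPS and Ftl1 of 4809 TPM. Lyz2 did not pass the test with TMM scaling (log2 change -0.13 ± 0.17, adjusted p = 0.515), and its TPM mean under LPS was 10921.

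The largest rises came from genes with almost no counts at rest. They include cytokine genes (Il12b, Il6, Il1a, Il1b, Il19, Il12a), chemokine genes (Cxcl11, Ccl17), enzymes that make nitric oxide and prostaglandins (Nos2, Ptgs2), and the vasoconstrictor peptide gene Edn1. Il12b, the p40 subunit shared by interleukins 12 and 23, had 1, 0 and 1 counts in the PBS libraries and 78480, 102951 and 31992 in the LPS libraries. That is a ratio of 162000 with a counting interval of 44900 to 1340000, which covers counting error only. Il6, an acute-phase cytokine gene, went from 0.0463, 0 and 0 to 1580.2, 2054 and 1299 CPM (log2 change 16.60 ± 0.45, adjusted p = 4.04e-12). In both genes every LPS library stood far above every PBS library, and the LPS libraries of Il12b differed among themselves more than those of Il6.

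Edn1, which encodes endothelin-1, had 2 counts at rest and 87103 after LPS, a ratio of 66200 (18300 to 547000). Nos2, the inducible nitric oxide synthase, went from 0.209, 0.102 and 0.0351 to 2608, 2531 and 2717 CPM (log2 change 14.45 ± 0.41), and Il1a from 0.348, 0.234 and 0.187 to 6084, 6480.0 and 4756 CPM (14.45 ± 0.28). Ptgs2, the inducible cyclooxygenase, went from 0.498, 0.275 and 0.0937 to 2793, 3406 and 2692 CPM (13.32 ± 0.44). Lipg, a lipase gene, went from 0.127, 0.153 and 0 to 980.0, 949 and 1053 CPM (13.31 ± 0.34), and Cxcl11, a ligand of the receptor CXCR3, from 0.0116, 0.0204 and 0.0117 to 401, 350.1 and 297 CPM (14.37 ± 0.32). In none of them did the PBS and LPS libraries overlap. The largest rises were picked among called genes without overlap, so this is no separate support. Adjusted p-values of Nos2, Il1a, Ptgs2, Lipg and Cxcl11 lay between 1.17e-14 and 5.48e-11.

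There were 9 genes with 0 counts in all 3 PBS libraries and a mean of at least 5 CPM under LPS. Against a floor of 3 counts over the group, Sele, which encodes E-selectin, was at least 2991-fold higher and Il19, an IL-10 family cytokine gene, at least 1688-fold higher. Steap4, a metalloreductase gene, was at least 1058-fold higher, the chemokine gene Ccl17 at least 914-fold and Macc1 at least 877-fold. E-selectin captures leukocytes on vessel walls and CCL17 attracts T cells through CCR4. Il12a, the p35 subunit of interleukin 12, was at least 774-fold higher. Ifitm7 (at least 742-fold), the alarmin gene Il33 (at least 485-fold) and U90926 (at least 1448-fold) were named after their values were seen. Sele was at 33.7, 37.1 and 28.0 CPM in the LPS libraries, and Ccl17 at 11.3, 13.6 and 4.19 CPM, of which replicate 3 was the lowest.

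In the opposite direction 1 gene went to 0 counts in all 3 LPS libraries from a mean of at least 5 CPM at rest, the gene model Gm15513 (1637 counts in the 3 PBS libraries), which was named after its values were seen.

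**Figure D2:**
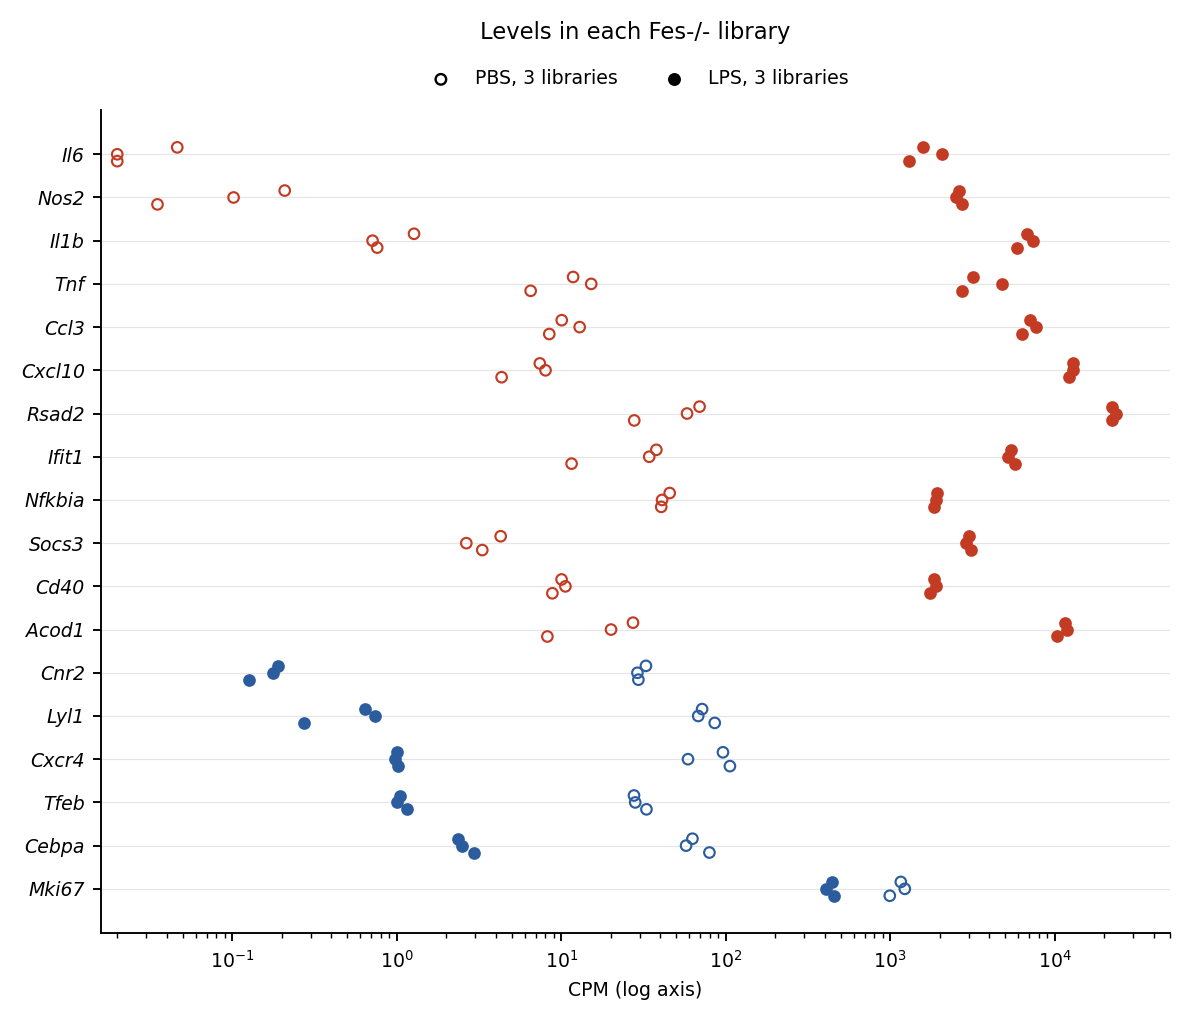
Levels of 18 genes in each of the 3 PBS (open circles) and 3 LPS (filled circles) libraries of Fes-/- macrophages, in CPM on a log axis, with 0 counts drawn at the left edge. In each gene shown the 3 LPS libraries lie on 1 side of the 3 PBS libraries, right of them in the upper 12 rows and left of them in the lower 6.

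Components of the LPS receptor moved in both directions. Of 18 receptor and adaptor genes tested, 10 rose and 5 fell (4 rose and 10 fell on library totals). Cd14, the LPS co-receptor, went from 271, 211 and 217 to 1719, 1617 and 1459 CPM (log2 change 2.78 ± 0.12, adjusted p = 2.07e-11), and Myd88, the main adaptor, from 72.6, 66.4 and 64.8 to 551, 562 and 549.7 CPM (3.03 ± 0.09). In both the groups were well apart. The kinase gene Irak2 rose by 3.80 ± 0.09 and Tab2, a partner of the kinase TAK1, by 2.29 ± 0.10. Tlr4 itself fell, from 109, 93.9 and 91.3 to 76.2, 71.0 and 79.7 CPM (-0.38 ± 0.09, adjusted p = 0.00106), and the other falling genes were Tab1 (-2.50), Irak4 (-1.08), Ticam2 (-0.77) and Irak1 (-0.42). Adaptor and kinase genes of the pathway thus moved in both directions. Ticam1, which encodes TRIF, rose with TMM (1.08 ± 0.08) and did not pass on library totals (0.15).

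Other Toll-like receptor genes moved in both directions as well, 10 of 13 rising and 2 falling (6 rose and 5 fell on library totals). Tlr2, the receptor for bacterial lipoproteins, rose by 4.11 ± 0.12 and its partners Tlr1 and Tlr6 by 2.13 and 2.04. Tlr3, which senses double-stranded RNA, rose by 4.36 ± 0.11, from 22.7, 19.9 and 16.2 to 426, 402 and 378 CPM. Tlr1, Tlr2 and Tlr6 act as pairs at the cell surface, and Tlr3 sits in endosomes. Tlr5, the flagellin receptor, fell by 3.33 and Tlr13, a sensor of bacterial ribosomal RNA, fell by 2.24 on the log2 scale.

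All 16 NF-kB and IkB genes tested rose (100%, against 34.3% of all genes tested), with a median log2 change of 3.24 against -0.08 over all genes tested. The list holds both activators and inhibitors. Nfkbia, the IkB that resets the pathway, went from 45.7, 41.1 and 40.6 to 1930.1, 1901 and 1841 CPM (5.48 ± 0.14, adjusted p = 9.97e-14). Nfkbiz, an atypical IkB needed for a class of secondary response genes, went from 14.5, 11.4 and 11.3 to 1319, 1587 and 1268 CPM (6.81 ± 0.14). Their PBS and LPS libraries were far apart. Among the subunits Nfkb2 rose by 4.12 ± 0.12, Nfkb1 by 3.77 ± 0.08, Rel by 3.58 ± 0.12 and Rela by 1.58 ± 0.09. The smallest rise was that of Ikbkg, the scaffold of the IkB kinase, at 0.19, which turned negative on library totals (-0.75).

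The promoters of 3 NF-kB targets are shown because their windows hold the kappa-B motif. The motif, here GGGA, then any base, then TTTCC, was searched on both strands and is in capitals. The windows come from RefSeq on GRCm38.p6, end 1 base before the annotated start, and run 5′ to 3′ on the gene's strand. Nfkbia is chr12:55492648-55492747 on the reverse strand, Il6 chr5:30013014-30013113 and Cxcl2 chr5:90903769-90903898, both on the forward strand.
Nfkbia: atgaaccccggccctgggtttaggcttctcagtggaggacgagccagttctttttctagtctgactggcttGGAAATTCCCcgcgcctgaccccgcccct
Il6: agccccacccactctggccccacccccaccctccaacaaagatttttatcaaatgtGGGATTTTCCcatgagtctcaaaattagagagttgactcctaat
Cxcl2: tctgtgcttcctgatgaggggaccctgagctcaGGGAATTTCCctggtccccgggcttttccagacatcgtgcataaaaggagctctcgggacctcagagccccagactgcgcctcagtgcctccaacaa
The motif lies 29 to 20 bases before the start of Nfkbia, 44 to 35 before that of Il6 and 97 to 88 before that of Cxcl2. It was held by 0.411% of all windows in the promoter table, 1.10% of windows of genes that rose at least 4-fold and 0.173% of those that fell at least 4-fold. A match describes the letters of a window and not a bound site.

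Feedback inhibitors of the pathway rose too. Of 24 such genes 19 rose and 4 fell, with a median of 4.05. Socs3, which blocks JAK signalling downstream of cytokine receptors, went from 4.29, 2.65 and 3.31 to 3029.8, 2886 and 3084 CPM (9.78 ± 0.29, adjusted p = 4.65e-12). Tnfaip3, which encodes the ubiquitin editor A20, went from 14.2, 13.7 and 11.9 to 3596, 3492 and 3685 CPM (8.08 ± 0.15). The 3 LPS libraries of each were close together. The phosphatase genes Dusp2 and Dusp1 rose by 8.69 and 6.19, and the mRNA decay factors Zfp36 and Zc3h12a by 5.34 and 4.69. Irak3, which encodes the inhibitory kinase IRAK-M, rose by 1.70 ± 0.09. Inhibitors that act on the receptor complex, on MAP kinases, on mRNA and on cytokine receptors were all among the genes that rose. Those that fell were Dusp6 (-3.54), Inpp5d (-2.27), Sigirr (-1.77) and Arrb2 (-1.32).

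Among 26 AP-1, EGR and immediate-early factor genes 19 rose and 5 fell (median 2.61). Junb rose by 4.47 ± 0.12, Atf3 by 3.63 ± 0.11 and Batf2 by 6.22 ± 0.14. All of them encode leucine-zipper factors. Fos was at 30.7, 34.3 and 23.7 CPM at rest and 72.9, 71.0 and 70.1 CPM after LPS (1.27 ± 0.16), and it did not pass on library totals (0.33). Egr1 rose by 5.87 ± 0.21 and remained low, with 24.7, 25.7 and 26.9 CPM after LPS. Both are classical immediate-early genes that peak within the first hour in many cells. Myc did not pass the test (1.42 ± 0.61, adjusted p = 0.0595), with 5.40, 14.2 and 4.89 CPM at rest and 19.8, 26.0 and 20.1 CPM after LPS, and PBS replicate 2 stood above the other PBS libraries. The genes that fell were Klf2 (-2.70), Klf10 (-2.44), Mafg (-1.66), Batf3 (-0.77) and Klf4 (-0.55).

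Of 34 cytokine and growth factor genes tested, 29 rose and 2 fell, 28 of the rises at least 2-fold. The median log2 change was 7.29, or 7.24 with the 4 genes at 0 counts at rest set to their lower bound. Il1b went from 1.27, 0.713 and 0.761 to 6822, 7352 and 5883 CPM (12.84 ± 0.61, adjusted p = 7.92e-09) and Tnf from 11.8, 15.2 and 6.52 to 3202, 4771 and 2751 CPM (8.32 ± 0.56, adjusted p = 1.98e-07). Tnf and Il1b encode the cytokines that set off the early inflammatory cascade, and in both the LPS libraries stood apart from the PBS libraries. Il27, the p28 subunit of interleukin 27, went from 0.880, 1.16 and 1.01 to 835, 889 and 861 CPM (9.72 ± 0.13). The inhibitory cytokine gene Il10 rose alongside, from 2.09, 1.81 and 2.05 to 315, 272 and 346 CPM (7.29 ± 0.18), and so did Il15, which sustains T and NK cells (4.86 ± 0.11), and Inhba, a subunit of activin A (7.73 ± 0.22).

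The cytokine genes differed widely in level. Per transcript length Il1b (8554 TPM), Il1a (7136 TPM) and Tnf (5315 TPM) were the highest of the list under LPS, and Il27 was at 2065, Il6 at 1649 and Il12b at 1472 TPM. Il10 was at 580.3 TPM and Il12a, whose product pairs with that of Il12b, at 12.5 TPM. The order of Il6 and Il12b lies within their spread, with SDs of 371 and 710.2 TPM. The transcript of the inhibitory Il10 lay below those of the genes named before it and above that of Il12a. The genes that fell were the stress cytokine gene Gdf15 (-2.93) and the angiogenic factor gene Vegfa (-2.15). Tnfsf13b (-0.31), Ltb (0.14) and Igf1 (0.05) did not pass the test.

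Chemokine genes gave the highest median of the lists, 8.46, with 20 of 22 rising, all at least 2-fold, and none falling. Ccl3 went from 10.1, 12.95 and 8.46 to 7075, 7668 and 6353 CPM (9.39 ± 0.20, adjusted p = 2.15e-14) and Ccl4 from 6.10, 7.26 and 4.40 to 4927, 5282 and 4341 CPM (9.68 ± 0.21). Both encode attractants of leukocytes and both stood far above rest in all 3 LPS libraries. Cxcl10, a ligand of CXCR3, went from 7.41, 8.03 and 4.34 to 12910, 12906 and 12237 CPM (10.91 ± 0.60), and Ccl5 from 33.3, 17.5 and 10.9 to 2979.7, 2947 and 2707 CPM (7.13 ± 0.42). The neutrophil attractant gene Cxcl2 went from 4.48, 4.70 and 2.89 to 1037, 1509 and 880.3 CPM (8.15 ± 0.43). LPS replicate 2 was the highest library for Cxcl2, and the LPS libraries of Cxcl10 and Ccl5 were close together. Ccl9 was already abundant at rest (586, 605 and 516 CPM) and rose by 2.80 ± 0.11. Ccl6 (-0.01) and Cxcl14 (0.26) did not pass.

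Receptors for chemoattractants shifted. Of 14 genes tested 10 rose and 4 fell (5 rose and 5 fell on library totals). The formyl peptide receptor genes Fpr2 and Fpr1, sensors of bacterial N-formyl peptides, rose by 6.50 ± 0.12 and 6.24 ± 0.21. Ccrl2, an atypical receptor that presents chemerin, rose by 7.07 ± 0.15. Receptors of bacterial and tissue danger signals were thus among those that rose, and receptors that guide traffic from marrow and blood among those that fell. Cxcr4, the receptor that retains cells in marrow, went from 96.3, 59.0 and 106 to 1.01, 0.971 and 1.01 CPM (-6.45 ± 0.30, adjusted p = 1.75e-09). Ccr2, the receptor of inflammatory monocytes, fell by 1.64, Cx3cr1, the fractalkine receptor, by 1.84 and Cxcr3 by 0.81 on the log2 scale.

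Genes of the interferon system rose together. Of 19 interferon signalling genes 17 rose and 2 fell, and all 48 interferon-stimulated antiviral genes and all 15 interferon-inducible GTPase genes tested rose at least 2-fold (medians 2.02, 4.03 and 6.16). Ifnb1, the interferon-beta gene, had 2 counts at rest and 2579 after LPS, a ratio of 1960 (542 to 16200). Its level under LPS was 12.7, 22.1 and 8.41 CPM, far below that of the genes that interferon induces. Irf1 rose by 3.53 ± 0.11, Jak2 by 5.24 ± 0.12 and Irf7, an interferon-induced amplifier, by 2.71 ± 0.42. Irf3, the factor that TRIF activates by phosphorylation, fell by 0.79 and Ifngr1, a chain of the interferon-gamma receptor, by 1.45.

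Among the antiviral genes, Rsad2, whose product viperin makes a chain-terminating nucleotide, went from 69.4, 58.2 and 27.8 to 22442, 23584 and 22316 CPM (8.78 ± 0.38, adjusted p = 4.41e-10). Ifit1, which binds viral RNA ends, went from 37.9, 34.3 and 11.6 to 5396, 5176 and 5712 CPM (7.60 ± 0.47), and Mx1, a dynamin-like GTPase gene, from 40.3, 35.1 and 15.6 to 5741, 5798 and 5339 CPM (7.54 ± 0.37). Isg15, a ubiquitin-like modifier, went from 29.5, 25.0 and 8.69 to 1031, 949 and 926 CPM (5.52 ± 0.48). In all 4 genes PBS replicate 3 was the lowest library, while the 3 LPS libraries were close together. None of the LPS libraries overlapped the PBS libraries. The smallest rise of the list was that of Ifitm3 (1.48).

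The interferon-inducible GTPases attack vacuoles that hold microbes. Gbp5 went from 8.77, 6.77 and 4.12 to 3553, 3369.9 and 3799.8 CPM (9.09 ± 0.37, adjusted p = 3.32e-10), Gbp2 from 29.1, 25.3 and 15.1 to 2523, 2620.1 and 2598 CPM (6.80 ± 0.29) and Irgm1 from 123, 103 and 67.8 to 1449, 1518 and 1381 CPM (3.89 ± 0.21). For these genes too the PBS library of replicate 3 was the lowest. Igtp rose by 4.72 ± 0.18 and Tgtp1 by 8.77 ± 0.24. Members of the Gbp and Irg families are close copies of each other, and how reads were divided between them is uncertain.

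Promoters of 5 of these genes are shown because they hold the interferon-stimulated response element (ISRE), here TTTC, any 2 bases and TTTC again, searched on both strands, in capitals. Isg15 is chr4:156200819-156200938, Rsad2 chr12:26456453-26456592 and Cxcl10 chr5:92348945-92349114, all on the reverse strand. Ifit1 is chr19:34640759-34640888 and Igtp chr11:58199456-58199555, both on the forward strand. The windows of Isg15, Ifit1, Rsad2 and Igtp end 1 base before the start and that of Cxcl10 ends 56 bases before it. In Cxcl10 the AP-1 motif TGANTCA is in capitals as well. Rsad2 also holds an AP-1 match, 87 to 81 bases before its start, which is left in lower case.
Isg15: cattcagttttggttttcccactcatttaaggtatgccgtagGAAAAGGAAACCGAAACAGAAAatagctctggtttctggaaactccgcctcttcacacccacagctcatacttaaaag
Ifit1: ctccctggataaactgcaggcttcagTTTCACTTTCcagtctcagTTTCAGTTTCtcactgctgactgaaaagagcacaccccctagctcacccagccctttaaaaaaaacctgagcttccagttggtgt
Rsad2: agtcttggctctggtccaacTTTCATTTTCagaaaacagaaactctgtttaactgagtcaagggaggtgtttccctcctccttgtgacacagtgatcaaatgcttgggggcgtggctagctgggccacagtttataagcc
Igtp: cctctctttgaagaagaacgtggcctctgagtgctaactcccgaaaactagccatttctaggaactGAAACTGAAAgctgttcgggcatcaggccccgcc
Cxcl10: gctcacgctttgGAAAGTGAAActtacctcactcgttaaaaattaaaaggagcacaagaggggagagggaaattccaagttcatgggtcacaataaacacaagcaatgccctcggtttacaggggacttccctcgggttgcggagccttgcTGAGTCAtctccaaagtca
Isg15 carries 3 overlapping matches between 78 and 57 bases before its start. Ifit1 carries 2, from 104 and from 85 bases before its start, Rsad2 has 1 from 120, Igtp 1 from 34 and Cxcl10 1 from 213 bases before it. The window of Igtp also holds a STAT motif (TTCNNNGAA) from 45 bases before the start, next to its ISRE.

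The motif was not limited to these genes. It was held by 22 of 37 windows of the antiviral genes (59.5%) and by 10 of 10 windows of the GTPase genes, against 3.34% of 10732 windows of all genes tested and 3.44% of all windows in the table. Among genes that rose at least 4-fold 9.54% held it, and among those that fell at least 4-fold 1.47%. The AP-1 motif was in 9.87% of the first, 4.94% of the second and 5.21% of all tested. The TATA box TATAAA was in 12.5%, 8.05% and 7.60%, and the E2F motif TTTCCCGC in 1.18%, 3.20% and 2.12%. The STAT motif was in 8.78%, 7.10% and 7.03%, the CRE TGACGTCA in 2.53%, 2.68% and 3.23% and the E-box CACGTG in 8.19%, 9.44% and 10.1%. All motifs were searched on both strands, and matches of different motifs may overlap. Windows with 5 or fewer CpG made up 30.7% of the first class, 15.3% of the second and 12.6% of all tested. These shares are descriptions, made on the genes with a window in the table, 1185 of 1823 that rose and 1155 of 1784 that fell.

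**Figure D3:**
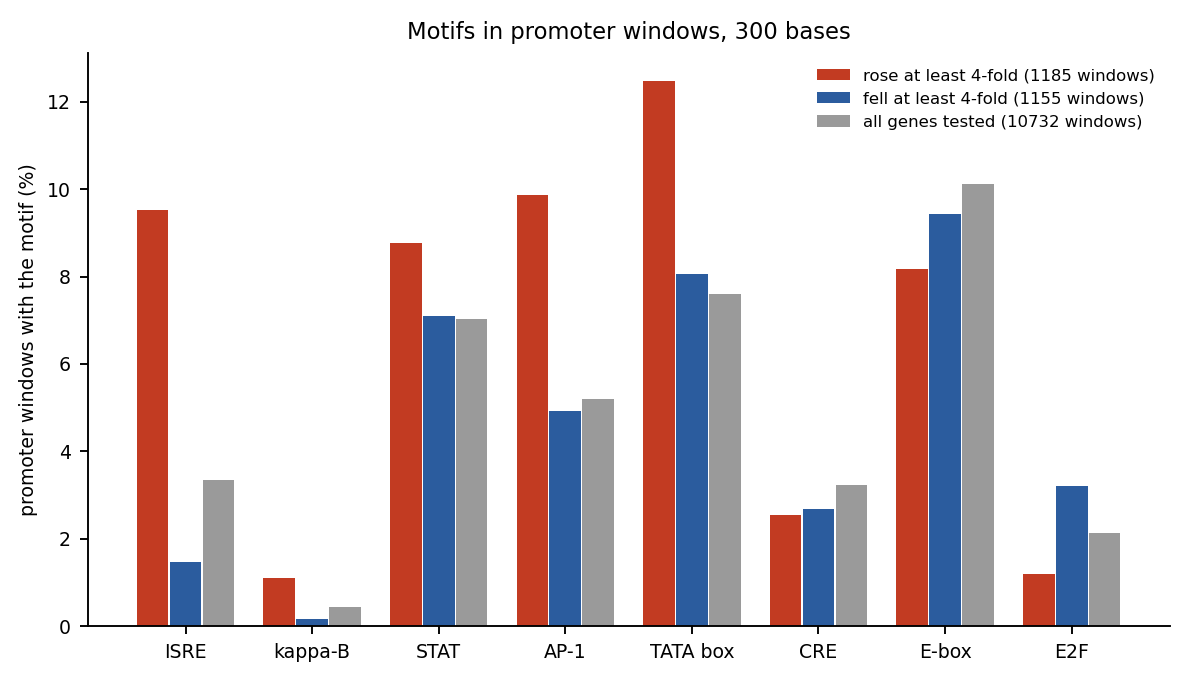
Bars give the percentage of promoter windows (300 bases, RefSeq, GRCm38.p6) that hold a motif on either strand, for genes that rose at least 4-fold (red, 1185 windows), genes that fell at least 4-fold (blue, 1155) and all genes tested (grey, 10732). The red bar is the highest of the 3 for ISRE, kappa-B, STAT, AP-1 and TATA box motifs, and the lowest for CRE, E-box and E2F.

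Genes of class I MHC presentation rose together after TMM scaling. All 24 genes tested rose and 18 rose at least 2-fold (median 1.70), while on library totals 16 rose and 3 fell. Tap1, a chain of the peptide transporter, went from 161, 130.3 and 106 to 901, 881 and 881 CPM (2.74 ± 0.14, adjusted p = 2.56e-10). Nlrc5, the class I transactivator, rose by 3.68 ± 0.14, and the immunoproteasome genes Psmb10 and Psmb9 by 2.70 ± 0.10 and 1.77 ± 0.11. These genes act before the peptide meets the heavy chain, in peptide cutting and transport and in transcription. H2-K1, a heavy chain gene, was at 1182, 864 and 957 CPM at rest and 2548, 2279.9 and 2039 CPM after LPS (1.19 ± 0.13) and did not pass on library totals (0.26). B2m rose with TMM (0.85 ± 0.09) and was at -0.08 on library totals.

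Class II MHC genes moved less. Of 13 genes 6 rose and 1 fell, with a median of 0.49, and on library totals 1 rose and 9 fell. The gene that rose by both scalings was Ciita, the class II transactivator, from 2.93, 1.96 and 2.44 to 10.2, 8.16 and 7.44 CPM (1.82 ± 0.38, adjusted p = 0.000875). Cd74, the invariant chain gene, was at 98.6, 78.2 and 99.9 CPM at rest and 194, 153 and 172 CPM after LPS, with a log2 change of 0.91 ± 0.14 after TMM and -0.02 on library totals. H2-DMb2, a chain of the peptide exchange factor H2-DM, fell by 0.74 on the log2 scale.

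Co-stimulatory and co-inhibitory genes rose in 17 of 20 cases and fell in 2 (median 2.79, 14 rose and 4 fell on library totals). Cd40, which receives help signals from T cells, went from 10.1, 10.6 and 8.84 to 1855, 1911 and 1754 CPM (7.55 ± 0.15, adjusted p = 1.61e-14). Cd274, which encodes the inhibitory ligand PD-L1, went from 20.2, 16.4 and 18.2 to 1804, 1706 and 2009 CPM (6.65 ± 0.18). In both genes every LPS library stood far above rest. Of the ligands of CD28, Cd86 rose by 3.69 ± 0.32 and Cd80 by 1.21 ± 0.20, the latter without passing on library totals (0.27). Icam1, an adhesion ligand of LFA-1, rose by 5.21 ± 0.14, Cd83 by 4.73 ± 0.15 and Tnfsf4, the OX40 ligand gene, by 7.53 ± 0.24. Genes of activating and of inhibitory ligands were both among those that rose. Those that fell encode the inhibitory receptors VISTA (Vsir, -1.57) and CD200R (Cd200r1, -1.20).

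Of 19 genes for arginine, nitric oxide, itaconate and polyamines 12 rose and 2 fell (7 rose and 7 fell on library totals). Beside Nos2, Acod1, the enzyme that makes itaconate from aconitate, went from 27.3, 20.1 and 8.24 to 11522, 11813 and 10291 CPM (9.24 ± 0.61, adjusted p = 1.42e-07). The arginine transporter gene Slc7a2 rose by 7.63 ± 0.40, Gch1, which supplies the cofactor of nitric oxide synthase, by 4.29 ± 0.16 and Odc1, the first enzyme of polyamine synthesis, by 2.68 ± 0.21. These act in import, cofactor supply and the competing use of arginine. Arg1, the arginase of alternatively activated macrophages, was near 0 in all 6 libraries, with 0.220, 0.336 and 0.129 CPM at rest and 0.313, 0.212 and 0.359 CPM after LPS, and was not called. Arg2 was low as well, and rose from 0.440, 0.143 and 0.246 to 1.91, 2.26 and 2.52 CPM (3.01 ± 0.35).

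In glycolysis the largest rises were at uptake and control points. Of 24 genes 14 rose and 4 fell (median 0.31, 8 rose and 16 fell on library totals). Pfkfb3, which makes the activator of phosphofructokinase, went from 10.7, 8.99 and 8.96 to 947, 779 and 1116 CPM (6.63 ± 0.20), Hk2 from 19.0, 20.1 and 19.0 to 349, 324 and 423 CPM (4.24 ± 0.13), Slc2a1, the glucose transporter GLUT1, rose by 2.08 ± 0.16, and Hif1a by 2.47 ± 0.12. The glucose transporter and hexokinase act at entry, and PFKFB3 and PFKFB4 are alternative forms of 1 control enzyme. Pfkfb4 fell by 2.62, Egln3 by 1.43, Pfkm by 0.82 and Pdk1 by 0.37 on the log2 scale. In the TCA cycle and pyruvate entry 11 of 26 genes rose (42.3%, against 34.3% of all genes tested) and 3 fell (median 0.20). On library totals none of them rose and 24 fell. Idh1, the cytosolic isocitrate dehydrogenase, fell by 1.03, Idh3g by 0.34 and Fh1 by 0.20.

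In cholesterol synthesis 13 of 24 genes fell and 6 rose (median -0.42, 0 rose and 19 fell on library totals). Stard4, a sterol carrier gene, went from 43.2, 50.9 and 45.6 to 8.74, 9.24 and 10.8 CPM (-2.28 ± 0.13, adjusted p = 6.91e-10), Dhcr7 fell by 1.77, Mvd by 1.50 and Lss by 1.32. The products of Dhcr7, Mvd and Lss catalyse steps of the pathway. Ch25h, which makes the antiviral oxysterol 25-hydroxycholesterol, went from 1.19, 1.17 and 0.691 to 706, 696 and 589 CPM (9.34 ± 0.36). Of 15 LXR target and cholesterol efflux genes 4 fell (26.7%, against 38.9% of all genes tested) and 2 rose (13.3%, against 34.3%). The median of this list was -0.22, and on library totals 1 rose and 12 fell. Among those that fell, the cholesterol exporter gene Abcg1 was at -1.75 and the desaturase gene Scd2 at -3.29. Both act on lipids downstream of the sterol sensor LXR. In prostaglandin synthesis Ptges, the partner of Ptgs2, went from 1.52, 1.47 and 0.972 to 135, 99.2 and 199 CPM (6.77 ± 0.38), while Ptgs1, the constitutive cyclooxygenase, fell by 0.90 and Hpgds, which makes prostaglandin D, by 1.25.

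Inflammasome genes rose in 12 of 15 cases and fell in 3 (7 rose and 6 fell on library totals). Nlrp3 went from 72.4, 73.6 and 69.7 to 1094, 1237 and 1143 CPM (4.01 ± 0.09, adjusted p = 4.65e-14), Casp4, which encodes the caspase-11 that binds cytosolic LPS, from 27.9, 25.1 and 23.4 to 302, 297 and 299 CPM (3.56 ± 0.10), and Casp1 and the pore-forming gasdermin gene Gsdmd rose by 2.62 ± 0.09 and 1.73 ± 0.09. The LPS libraries of Nlrp3 and Casp4 were well above rest. Nlrp1b (-1.80), Txnip (-1.44) and Nlrc4 (-0.58) fell. Among 28 death receptor and BCL2 family genes 20 rose and 5 fell (15 rose and 10 fell on library totals). Cflar, the inhibitor of caspase-8, went from 88.2, 85.8 and 81.7 to 2399.6, 2464 and 2358 CPM (4.82 ± 0.09), Birc3 rose by 3.91 ± 0.13 and Bcl2a1d by 7.59 ± 0.15, although the Bcl2a1 genes are near-identical copies whose counts are uncertain. Each of these products protects cells from death receptors or from loss of mitochondrial integrity. Those that fell were Bmf (-7.10), Pmaip1 (-2.27) and Bbc3 (-1.45), which encode killers of the BH3-only class, the survival gene Bcl2 (-1.35) and Ripk3 (-0.36), the kinase of necroptosis.

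Receptors for uptake diverged. Of 26 scavenger and apoptotic cell receptors and partners 12 rose and 6 fell (median 0.06, 6 rose and 18 fell on library totals). Olr1, a receptor of oxidised LDL, went from 0.0695, 0.132 and 0.0820 to 109, 102 and 183 CPM (10.39 ± 0.43), Clec4e, which encodes the glycolipid receptor Mincle, rose by 4.67 ± 0.26 and Msr1 by 2.41 ± 0.18. Of the TAM receptor genes Axl rose by 2.73 ± 0.19 and Mertk fell by 0.55 on the log2 scale (from 87.1, 83.4 and 93.8 to 55.4, 55.7 and 69.6 CPM). AXL and MERTK both recognise apoptotic cells. Mrc1, the mannose receptor gene, did not pass the test (-0.17 ± 0.19). Of 17 Fc receptor and complement genes 15 rose and none fell, but on library totals 6 rose and 7 fell. C3 went from 91.2, 57.3 and 61.1 to 1156, 1114 and 1009 CPM (3.97 ± 0.17), Fcgr1 rose by 2.86 ± 0.13, Fcgr4 by 3.82 ± 0.11 and the inhibitory receptor gene Fcgr2b by 3.88 ± 0.24.

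Lysosomal genes were nearly flat relative to the bulk, with a median of 0.11. Of 33 genes 14 rose (42.4%, against 34.3% of all genes tested) and 7 fell. On library totals 2 rose and 28 fell. Ctsb, which encodes the protease cathepsin B, did not pass the test (0.18 ± 0.10). Regulators of lysosome genes moved in opposite directions. Tfeb, a master factor of lysosome genes, went from 27.7, 28.2 and 33.0 to 1.05, 1.01 and 1.16 CPM (-4.79 ± 0.14, adjusted p = 4.35e-13) and its relative Mitf from 51.4, 52.0 and 51.0 to 273, 259 and 275 CPM (2.39 ± 0.08).

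**Figure D4:**
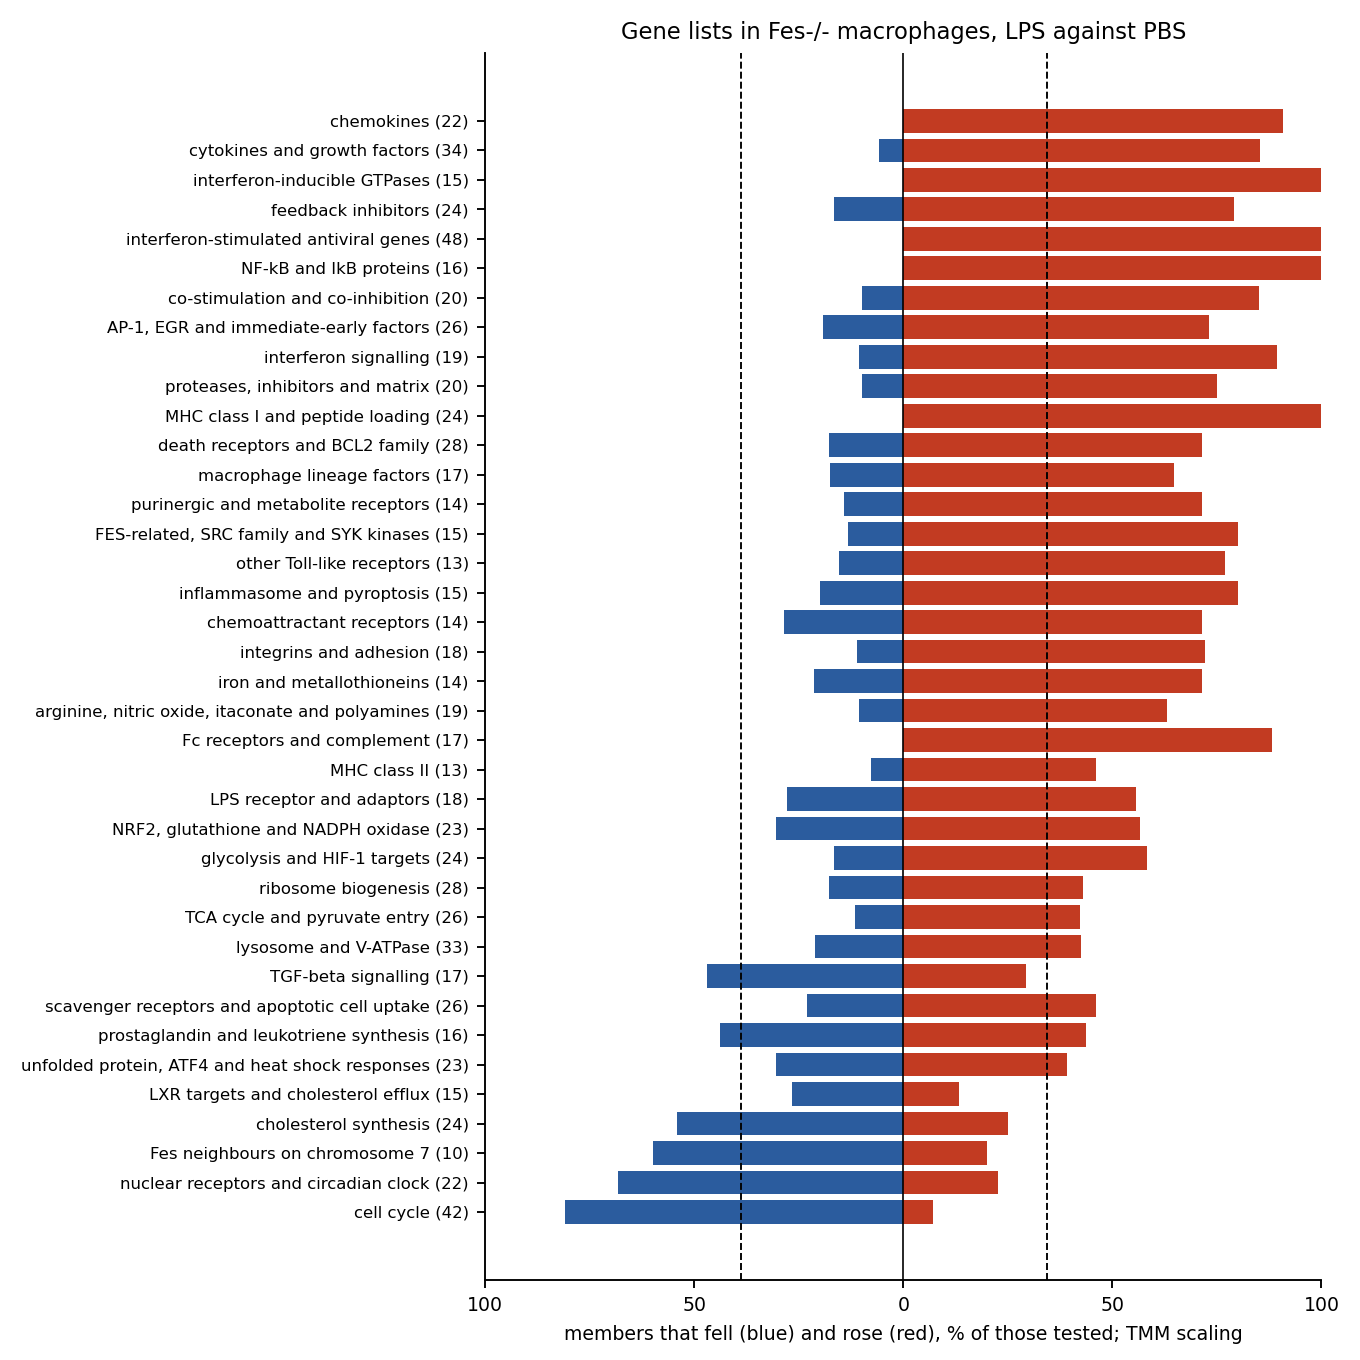
For 38 gene lists, bars give the percentage of tested members that rose (red, right) and fell (blue, left) in Fes-/- macrophages with LPS after TMM scaling, with the number tested beside each name. The dashed lines mark all genes tested, of which 34.3% rose and 38.9% fell; on library totals rises of small size turn to falls, and the median change is lower by 0.934.

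Cell cycle genes fell as a group: 34 of 42 fell and 3 rose (median -0.96), and on library totals 38 fell. Mki67, the proliferation marker, went from 1161, 1227 and 995 to 444, 406 and 459 CPM (-1.37 ± 0.12, adjusted p = 4.78e-08). The replication licensing gene Cdt1 went from 58.3, 55.9 and 59.5 to 9.36, 10.3 and 7.21 CPM (-2.69 ± 0.14), the spindle checkpoint gene Bub1b from 183, 173 and 169 to 28.0, 31.2 and 26.1 CPM (-2.62 ± 0.10) and the mitotic factor gene Foxm1 fell by 2.02. The libraries of these genes did not overlap. Mcm5, a subunit of the replicative helicase, fell less (-0.51 ± 0.16), as did Ccnb1 (-0.55 ± 0.20). The 3 genes that rose were Cdkn1a, which encodes the cell cycle inhibitor p21 (2.96 ± 0.12), Ccnd2 (6.59) and Cdk6 (1.74).

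The translation machinery was less altered. Of 83 cytosolic ribosomal protein genes 60 rose and 1 fell with a median of 0.28 after TMM, and 81 fell on library totals. Of 28 ribosome biogenesis genes 12 rose (42.9%, against 34.3% of all genes tested) and 5 fell. On library totals 3 rose and 16 fell. Wdr43, a factor of small subunit assembly, rose by 3.08 ± 0.12 and Noc4l by 1.84 ± 0.10, while Wdr12 fell by 1.42. Hsp70 genes are paralogs whose reads may be shared. In the stress lists Hspa1b, an inducible HSP70 gene, rose by 5.42 ± 0.19 and the chaperone gene Hspa5 by 1.54 ± 0.13, but other targets of the unfolded protein response fell, with Ddit3 at -1.44, Ern1 at -1.33 and Herpud1 at -1.15.

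Redox and iron genes moved in both directions, with more rising than falling after TMM scaling. Of 23 redox genes 13 rose and 7 fell (6 rose and 14 fell on library totals). Of 14 iron and metallothionein genes 10 rose and 3 fell (5 rose and 5 fell on library totals). Sod2, the mitochondrial superoxide dismutase, went from 54.5, 59.4 and 54.0 to 1209, 1152 and 1326 CPM (4.46 ± 0.12), Cybb, the catalytic subunit of the phagocyte oxidase, rose by 2.34 ± 0.10 and the cystine importer gene Slc7a11 by 7.35 ± 0.25. Sod2 and the phagocyte oxidase act on superoxide from opposite ends. Hmox1, which degrades heme, fell by 1.26 and Gclc, which starts glutathione synthesis, by 2.24. Slc40a1, the iron exporter ferroportin, went from 123, 100.1 and 189 to 10.2, 10.4 and 13.3 CPM (-3.61 ± 0.31, adjusted p = 1.15e-06). PBS replicate 3 was the highest library of Slc40a1, and no LPS library came near rest. Importers rose, Slc11a2 by 3.07 ± 0.08 and Slc39a14 by 4.10 ± 0.27, as did Lcn2, which binds bacterial siderophores (7.57 ± 0.27).

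Of 20 protease, inhibitor and matrix genes 15 rose and 2 fell (10 rose and 5 fell on library totals). Mmp13, a collagenase, went from 5.68, 7.58 and 3.11 to 5810.2, 6628 and 4769 CPM (10.03 ± 0.37, adjusted p = 9.3e-11). Mmp14 rose by 5.86 ± 0.15 and Plaur, the urokinase receptor gene, by 4.84 ± 0.23. Serpinb2 had 1 count at rest and 4449 after LPS, a ratio of 6770 (1210 to 267000). Mmp19 (-1.65) and Mmp8 (-0.55) fell. Itgb8, an activator of TGF-beta, went from 0.0695, 0.0408 and 0.0820 to 79.9, 71.6 and 77.6 CPM (10.20 ± 0.20), Vcam1 rose by 8.71 ± 0.26 and Itga5 by 3.56 ± 0.14, while Itgb3 (-1.30) and Itga6 (-0.60) fell.

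Receptors for adenosine and metabolites rose from low levels. Adora2a went from 0.139, 0.112 and 0.129 to 105, 96.3 and 95.6 CPM (9.60 ± 0.15, adjusted p = 2.99e-15) and Hcar2, the nicotinic acid receptor, from 0.649, 1.20 and 0.351 to 165, 212 and 129 CPM (7.81 ± 0.41). Both receptors restrain inflammatory signalling in macrophages. Gpr84, a receptor of medium-chain fatty acids, rose by 5.84 ± 0.42. P2rx7, the ATP-gated channel, fell from 100.2, 92.4 and 101 to 19.4, 19.9 and 16.2 CPM (-2.40 ± 0.13), and Gpr34 fell by 3.21.

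Of 17 transcription factor genes of the macrophage lineage 11 rose and 3 fell (8 rose and 7 fell on library totals). Spi1, which encodes PU.1, rose by 1.59 ± 0.07. Members of the C/EBP family moved in opposite directions. Cebpa went from 62.8, 57.5 and 79.7 to 2.37, 2.51 and 2.96 CPM (-4.68 ± 0.16, adjusted p = 2.42e-12), while Cebpd went from 17.0, 20.3 and 20.6 to 298, 303 and 329 CPM (4.01 ± 0.10) and Cebpb from 47.9, 46.2 and 38.9 to 381, 431 and 652 CPM (3.46 ± 0.19). LPS replicate 3 was the highest library of Cebpb. Bhlhe41 fell by 3.94. Csf1r, the M-CSF receptor gene, did not pass the test (-0.17 ± 0.10).

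Of 22 nuclear receptor and clock genes 15 fell (68.2%, against 38.9% of all genes tested) and 5 rose (median -0.79). Among the clock outputs Dbp went from 8.69, 6.53 and 13.8 to 0.299, 0.371 and 0.338 CPM (-4.85 ± 0.42) and Tef from 33.7, 28.7 and 35.9 to 2.56, 2.44 and 3.15 CPM (-3.60 ± 0.19), Per1 fell by 3.11 and Arntl, which encodes BMAL1, by 1.91. DBP and TEF are output factors of the clock, and BMAL1 is part of its core. Rxra, the shared partner of many nuclear receptors, fell by 3.22 and Pparg by 1.45. Those that rose were Nr4a3 (11.29), Nr4a2 (2.08), the glucocorticoid receptor gene Nr3c1 (1.83), Cry1 (1.15, not called on library totals at 0.22) and Ciart (0.83, -0.10 on library totals). NR4A proteins are orphan receptors induced by many stimuli. In TGF-beta signalling 8 of 17 genes fell (47.1%, against 38.9% of all genes tested) and 5 rose (29.4%, against 34.3%). The median of this list was 0.07, and on library totals 2 rose and 13 fell. Of those that fell, the receptor gene Tgfbr1 was at -1.92 ± 0.08 and Smad3 at -2.89 ± 0.20. The co-repressor gene Skil rose (4.19 ± 0.10).

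Of 15 kinase genes related to Fes by sequence or signalling, Fes included, 12 rose and 2 fell (8 rose and 6 fell on library totals). Src went from 4.12, 2.77 and 4.76 to 234, 172 and 344 CPM (6.01 ± 0.31), Lyn rose by 2.44 ± 0.09 and Syk by 1.50 ± 0.09. LYN is a SRC family kinase of myeloid cells, and SYK acts below Fc receptors. Fer, the closest relative of Fes, did not pass the test, with 16.6, 16.3 and 18.2 CPM at rest and 17.0, 16.0 and 20.3 CPM after LPS (0.06 ± 0.12). Csk, which restrains the SRC family, fell by 0.35 on the log2 scale.

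The 15 largest falls, among named genes with at least 5 CPM at rest, hold receptors, transcription factors and signalling proteins. Cnr2, the cannabinoid receptor of immune cells, went from 32.8, 29.1 and 29.5 to 0.191, 0.177 and 0.127 CPM (-7.48 ± 0.14, adjusted p = 1.17e-14). The zinc-finger gene Zfp395 went from 61.2, 62.5 and 70.1 to 0.340, 0.494 and 0.359 CPM (-7.35 ± 0.22), and Lyl1, a blood-cell transcription factor gene, from 71.9, 68.1 and 85.8 to 0.640, 0.742 and 0.275 CPM (-7.04 ± 0.24). Sesn1, a stress-induced inhibitor of mTORC1, went from 219, 197 and 276 to 2.10, 3.32 and 2.20 CPM (-6.51 ± 0.20). In each of the 4 genes all LPS libraries were close to 0.

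The others were Bmf and Cxcr4, given above, the lysophosphatidic acid receptor gene Lpar5 (-6.42 ± 0.34), Neurl1b, which encodes a ubiquitin ligase (-6.62 ± 0.22), Rtkn2 (-6.82 ± 0.29), Fam78a (-6.80 ± 0.18), Fam214a (-6.25 ± 0.27), Frat2, an inhibitor of the kinase GSK3 (-6.15 ± 0.45), Ccsap (-6.02 ± 0.23), Plekhh3 (-6.01 ± 0.28) and Depdc7 (-5.80 ± 0.27). The 15 were picked among called genes whose libraries did not overlap, and their edgeR adjusted p-values lay between 1.17e-14 and 2.49e-08. Numbered zinc-finger genes (Zfp) fell as a class, 246 of 336 falling (73.2%, against 38.9% of all genes tested) and 48 rising (median -0.92).

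Gene types differed as well. Of 12570 protein-coding genes 36.8% rose and 40.6% fell. Of 1361 long non-coding RNA genes 24.1% rose and 49.1% fell (median -0.90), and of 1200 pseudogenes 23.2% rose and 11.2% fell. Reads of pseudogenes can come from their parent genes, and counts on overlapping or antisense genes are uncertain because the sources used here do not say whether strand was used in counting.

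Whether the response of Fes-/- cells differed from that of wild-type macrophages was asked of every gene: the difference of the log2 changes was tested in the same model. It was called for 3 of 15801 genes (0.019%), 1 upward (0.00633%) and 2 downward (0.0127%), and 464 had an unadjusted p under 0.05. For 10507 genes (66.5%) the 95% interval of the difference lay within 2-fold either way. In wild type 11601 genes were called (73.4%), of which 5464 rose (34.6%) and 6137 fell (38.8%). The 10834 genes called in both genotypes with the same sign made up 93.6% of the Fes-/- calls and 93.4% of the wild-type calls. Across genes the log2 changes of the genotypes correlated with Pearson's r = 0.966 and Spearman's rho = 0.969, which are descriptions over genes that share 12 libraries.

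All 3 genes with a called difference lie on chromosome 7, which carries Fes. Fes fell in Fes-/- cells (-1.02) and was not called in wild type (-0.15 ± 0.07), a difference of -0.87 ± 0.10 (95% interval -1.09 to -0.66, adjusted p = 0.00556). Tsku, the gene of tsukushi, a secreted leucine-rich repeat protein (98350668 to 98361328, reverse strand), went from 2.47, 2.42 and 2.36 to 12.9, 11.7 and 10.6 CPM in Fes-/- cells and from 2.49, 3.46 and 3.57 to 1.62, 0.962 and 2.72 CPM in wild type. It rose in the first (2.28 ± 0.25) and fell in the second (-0.84 ± 0.26), a difference of 3.12 ± 0.36 (2.34 to 3.89, adjusted p = 0.00556). All 3 Fes-/- LPS libraries of Tsku stood above the other 9 libraries. Unc45a, a myosin chaperone gene close to Fes (80325292 to 80341005), was at 13.5, 12.3 and 14.9 CPM at rest and 15.7, 16.0 and 14.8 CPM after LPS in Fes-/- cells, a change of 0.19 ± 0.09 that did not pass and turned negative on library totals (-0.74). In wild type it went from 13.8, 14.4 and 15.3 to 29.1, 32.5 and 31.8 CPM (1.10 ± 0.09), a difference of -0.91 ± 0.13 (-1.18 to -0.64, adjusted p = 0.0215).

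Leaving out single libraries kept the calls of Fes and Tsku in all 12 fits. That of Unc45a was lost in 8 of them, on leaving out wild-type PBS replicate 1, wild-type LPS replicate 2 or 3, Fes-/- PBS replicate 1 or 3, or any Fes-/- LPS library, with adjusted p-values from 0.0174 to 0.122 over the 12. Prcp, also on chromosome 7 and named after its values were seen, was called in opposite directions (0.53 ± 0.13 in Fes-/- and -0.35 ± 0.13 in wild type), and its difference did not pass (0.87, adjusted p = 1.000). With the replicate number as a block it passed (0.87, adjusted p = 0.0159), as it did with no filter on low counts (0.92, adjusted p = 8.50e-08). Dropping the filter moved other p-values as well. The Myc response, not called in the main fit, reached an adjusted p of 1.19e-25 there (edgeR). The fit with no filter is therefore not taken as added support for Prcp. Prcp turned negative on library totals in Fes-/- cells (-0.41).

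For the genes through which macrophages prime T cells the responses of both genotypes are given side by side for examples chosen with their values known, with the 95% interval of the difference. None of these differences passed the test. Log2 changes in Fes-/- and wild type were 8.32 and 8.49 for Tnf (difference -1.47 to 1.13), 16.60 and 16.25 for Il6 (-3.34 to 4.04) and 12.84 and 12.11 for Il1b (-0.63 to 2.08). They were 9.72 and 9.93 for Il27 (-0.53 to 0.12), 4.86 and 4.75 for Il15 (-0.17 to 0.38) and 7.29 and 7.28 for Il10 (-0.44 to 0.47). The intervals of Il27, Il15 and Il10 lie within 2-fold either way, and those of Tnf, Il6 and Il1b are wider. The subunits of interleukin 12, which directs T cells to make interferon-gamma, had the widest intervals of these cytokine genes, with log2 changes of 16.99 and 12.81 for Il12b (difference -2.89 to 11.23, adjusted p = 1.000) and 12.29 and 10.33 for Il12a (-2.94 to 6.87). Both had almost no counts at rest, so these fitted changes rest on few counts. Under LPS Il12b was at 1068, 1818 and 676 CPM in Fes-/- and 673, 145 and 611 CPM in wild-type libraries, the lowest of the first just above the highest of the second.

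Among surface and presentation genes Cd40 changed by 7.55 and 7.76 (difference -0.57 to 0.13), Cd86 by 3.69 and 3.78 (-1.02 to 0.85) and Cd80 by 1.21 and 0.83 (-0.24 to 1.01). Cd274 changed by 6.65 and 6.48 (-0.26 to 0.60), H2-K1 by 1.19 and 1.12 (-0.31 to 0.45) and Tap1 by 2.74 and 2.76 (-0.43 to 0.40). The T cell attractant gene Cxcl10 changed by 10.91 and 11.50 (-1.87 to 0.68). H2-K1 and Cd80 did not pass on library totals in Fes-/- cells, as given above. All of these intervals include 0, and that of Cxcl10 is the widest among these surface, presentation and attractant genes.

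**Figure D5:**
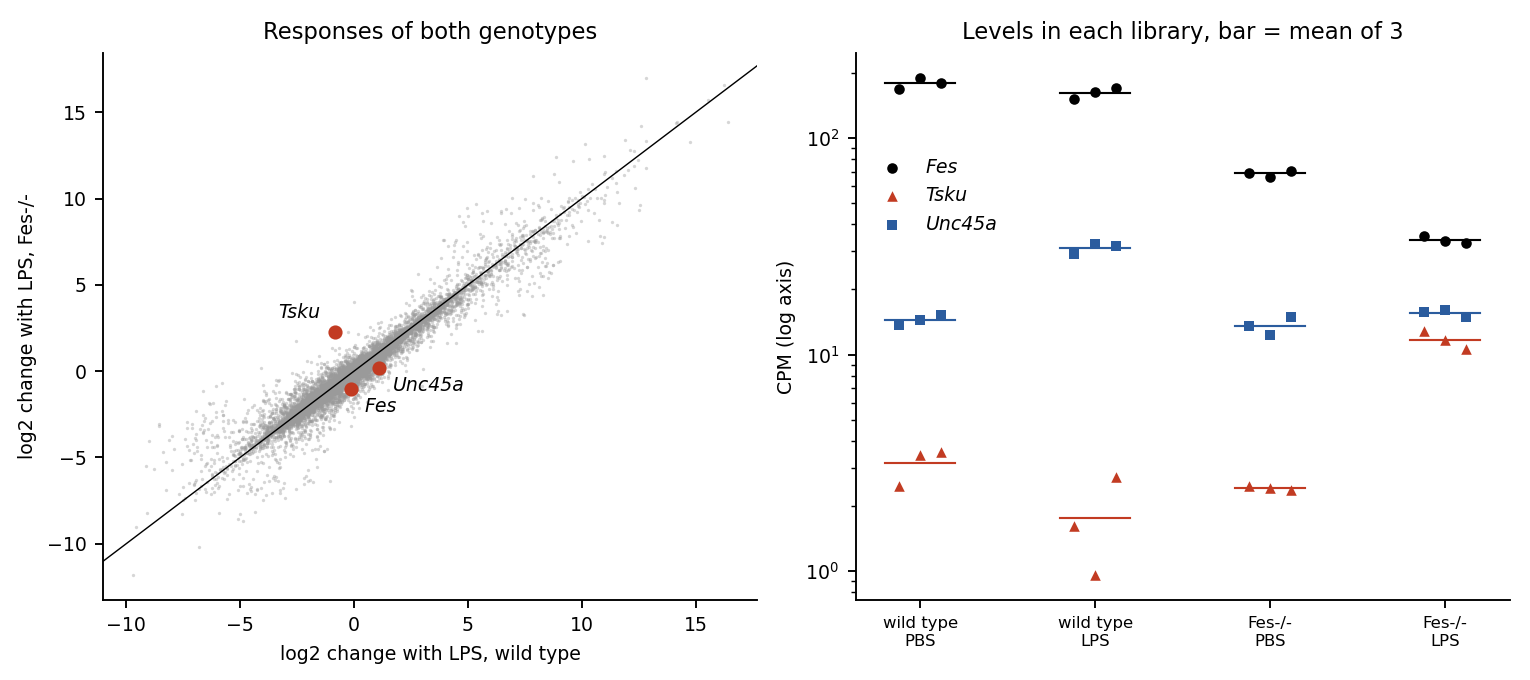
Left, log2 changes with LPS in wild-type (x axis) and Fes-/- (y axis) macrophages for 15801 genes, with the 3 genes of a called difference marked; right, CPM of Fes, Tsku and Unc45a in each of the 12 libraries on a log axis. The points lie along the diagonal (r = 0.966), and the marked genes lie off it.

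Markers of macrophages were present in every library: the summed level of 12 markers was 12280 to 16080 CPM at rest and 15750 to 17880 CPM after LPS. Fewer cells of a type and less RNA per cell cannot be told apart in bulk samples. The 6 B cell markers summed to 18.9 to 33.4 CPM at rest and 5.01 to 8.05 CPM after LPS, with Cd79a near 0 throughout. The 8 T and NK cell markers summed to 1.26 to 3.76 and 14.8 to 17.1 CPM, almost all of the latter from Lck (16.3, 14.1 and 15.3 CPM), with Ncr1 at 0 and Cd3e at or near 0. The 7 stromal markers summed to 1.34 to 2.99 and 13.9 to 17 CPM, mostly from Pdgfrb (11.6, 13.9 and 12.3 CPM), and the 7 erythroid markers stayed under 0.058 CPM. The part of such cells in the lists above was not tested.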

How the data were processed

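Poly-A RNA was sequenced from 12 libraries of mouse bone-marrow-derived macrophages, and the 6 Fes-/- libraries (3 PBS, 3 LPS) are described. The authors deposited raw counts per gene and TPM per gene. Per the submitters' processing notes STAR 2.7.8a, Picard 2.9.0 and DESeq2 1.34.0 were used and the builds GRCm38 and mm9 are named without roles, and no program for counting is named there. Gene IDs were matched to GENCODE M21 on GRCm38, 55227 of 55487 by ID, and gene lengths implied by the deposited TPM and counts were within 1% of that annotation for 98.5% of 11202 genes.

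Fes-/- totals were 61682213 to 70038994 counts in PBS and 64756607 to 101027166 in LPS libraries. Genes were filtered with filterByExpr, scaled with TMM and tested with edgeR 4.0.16 (quasi-likelihood, 4 groups, 12 libraries, 8 residual degrees of freedom, Benjamini-Hochberg adjustment, threshold 0.05) in R 4.3.3. CPM values use the TMM library sizes. The wild-type response and the difference of responses came from the same fit. The fit was tested on simulated data. Where a gene had 0 counts at rest, folds are against 3 counts over the group. Alternatives were RLE factors, library totals, other filters, a replicate block, 6 libraries alone, leaving out each library, DESeq2 1.42.0, and limma 3.58.1 on log2(TPM + 1) and log2(TPM + 0.1). Promoter windows (250 bases before to 50 after a start) come from RefSeq, GRCm38.p6.

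Named are Fes, the 15 largest rises and falls (called, at least 5 CPM, libraries not overlapping), the defining members of each list and up to 4 more by p, genes called in the difference, and the 5 most abundant genes per group by TPM. The 47 lists and the members were chosen with earlier results of these data known. The sample titles mark the replicates with the word Biol and do not say whether they came from separate cultures. The p-values therefore measure only the spread between these samples. All sample columns of the deposited tables matched a label. A few genes that the naming rule covers are not reported here.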

Additional observations from a re-analysis of the deposited data

Results flagged for a closer look

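For 3 genes the test of the difference between the Fes-/- and wild-type responses passed its threshold. The difference, Fes-/- minus wild type on the log2 scale, was -0.87 ± 0.10 for Fes, 3.12 ± 0.36 for Tsku and -0.91 ± 0.13 for Unc45a. Fes fell with LPS in all 3 Fes-/- replicates, to 33.8 CPM from 68.6 CPM on average, with wild-type means of 179 and 162 CPM. Tsku had means of 2.42 and 11.7 CPM in Fes-/- PBS and LPS libraries and of 3.17 and 1.77 CPM in wild type. Unc45a had means of 13.6 and 15.5 CPM in Fes-/- and of 14.5 and 31.1 CPM in wild type. In wild type all LPS libraries of Unc45a lay above all PBS libraries, and in Fes-/- the groups overlapped.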

How the results depend on the processing

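The counts of called genes in Fes-/- macrophages were within 1.5 times of the reported ones with RLE factors (5696 rose and 5858 fell), DESeq2 (6051 and 6017), no filter on low counts (5587 and 6572), a filter of 1 CPM in 3 libraries (4656 and 5170) and the 6 Fes-/- libraries alone (5517 and 5882). Leaving out each of the 12 libraries gave 5166 to 5712 rises and 5767 to 6248 falls. Scaling to fixed totals changed the split. Library totals gave 2510 rises and 11064 falls (1832 and 7843 at least 2-fold), limma on log2(TPM + 1) gave 2445 and 11201 (1287 and 5846), and limma on log2(TPM + 0.1) gave 2455 and 11224 (1732 and 7803). TPM sums to a fixed total, as library totals do. Of 271 genes given with values, 236 kept their direction and call in every setting. Those that turned on library totals, log2(TPM + 1) and log2(TPM + 0.1) are given with their log2 changes in that order: Arg1 (-0.58, -0.17 and -0.44), B2m (-0.082, -0.13 and -0.13), Cd74 (-0.024, -0.065 and -0.065), Ciart (-0.10, -0.075 and -0.10), Ctsb (-0.75, -0.80 and -0.80), Cxcl14 (-0.67, -0.66 and -0.69), Fer (-0.87, -0.85 and -0.91), Igf1 (-0.88, -0.91 and -0.92), Ikbkg (-0.75, -0.75 and -0.78), Ltb (-0.79, -0.46 and -0.81), Prcp (-0.41, -0.43 and -0.44), Tmsb4x (-0.44, -0.48 and -0.48), Unc45a (-0.74, -0.66 and -0.76) and mt-Co1 (-0.63, -0.67 and -0.67). Without turning, the calls of Cd80, Cry1, Fos, H2-K1 and Ticam1 were lost in all 3 of these settings, that of Ciita on log2(TPM + 0.1), that of Fh1 with RLE factors, and those of Ikbkg and mt-Co1 with no filter on low counts. Calls lost without 1 library, with the highest adjusted p over such fits, were those of Batf3 (Fes-/- PBS 3, Fes-/- LPS 2, 0.136), Bcl2 (Fes-/- PBS 2, Fes-/- LPS 1 or 3, 0.0723), Ccnb1 (Fes-/- PBS 1 or 2, Fes-/- LPS 1 or 3, 0.12), Egln3 (Fes-/- LPS 1, 0.0849), Fh1 (Fes-/- PBS 3, Fes-/- LPS 3, 0.111), H2-DMb2 (Fes-/- PBS 1 or 2, Fes-/- LPS 3, 0.104), Ikbkg (wild-type LPS 1, 2 or 3, Fes-/- PBS 2, Fes-/- LPS 1, 2 or 3, 0.153), Ripk3 (Fes-/- PBS 1 or 2, Fes-/- LPS 3, 0.095) and mt-Co1 (Fes-/- PBS 1, Fes-/- LPS 3, 0.128). Calls gained in some setting, among genes given as not passing, were those of Apoe, Ccl6, Cd4, Csf1r, Ctsb, Cxcl14, Lyz2, Mrc1, Myc, Tnfsf13b and Unc45a. Over the fits without 1 library the values ran for Apoe from -0.98 to 0.51, Ccl6 from -0.10 to 0.15, Fer from -0.044 to 0.13, Igf1 from -0.015 to 0.13, Ltb from -0.18 to 0.31 and Lyz2 from -0.28 to 0.085. Ccl6 was at 0.044 with RLE factors, 0.0018 with the replicate block, 0.018 in the 6 libraries alone and 0.031 with DESeq2. With the class of risen genes set at 2-fold in place of 4-fold, 7.37% of promoter windows held the ISRE.

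The difference of the responses was called for 3 genes by edgeR, 5 by DESeq2 (Fes, Tsku, Unc45a and, named after their values were seen, Fbn1 and P2ry2), 6 on log2(TPM + 1), 5 on log2(TPM + 0.1) and 90 with no filter on low counts (42 higher and 48 lower in Fes-/-). Fes, Tsku and Unc45a were among those of DESeq2 and of both TPM fits. The fit with no filter also moved p-values of the Fes-/- response, with 3 named genes gaining a call and 2 losing it. Replicate numbers are shared by PBS and LPS labels, but no label says that a number marks a mouse. Same-numbered libraries deviated together with correlations across genes of 0.0678, 0.0894 and 0.189 in Fes-/- and of 0.141, 0.166 and 0.137 in wild type. In wild type all 6 correlations between different numbers were negative. Deviations from a group mean cancel out within the group, so positive same-numbered values push the others down. These negative signs are therefore not separate evidence. Each library correlated best with its own number in both genotypes, a hint from the data and not from the design. In Fes-/- the margin was small for PBS replicate 1, at 0.0678 with LPS replicate 1 and 0.0603 with LPS replicate 2. PBS replicate 2 with LPS replicate 1 was at 0.0211, and the remaining values between different numbers ran from -0.133 to -0.0783. With the replicate block 5599 genes rose and 6278 fell, and the difference was called for 4 genes, Prcp being the fourth.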

Other observations

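Of 51 tested genes with a mean over 1000 CPM in Fes-/- PBS libraries 25 rose and 5 fell with TMM, and none of them changed 4-fold. Of all genes tested 34.3% rose and 38.9% fell, and 11.5% rose and 11.3% fell at least 4-fold. Of 230 solute carrier genes (Slc), which move nutrients and ions across membranes, 103 fell (44.8%) and 78 rose (33.9%), beside 38.9% and 34.3% of all genes tested, and on library totals 160 fell and 42 rose. Of 13 mitochondrially encoded protein genes 5 rose (38.5%, against 34.3% of all genes tested) and none fell with TMM. On library totals none rose and 8 fell.

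Of 10 genes next to Fes on chromosome 7 that were tested, 6 fell (60%, against 38.9% of all genes tested) and 2 rose. The difference of the responses was called for 1 of the 10. It had an unadjusted p under 0.05 (edgeR) for 4 of them, beside 464 of all 15801 genes tested. Furin, a protease that matures growth factors and toxins, went from 64.2, 58.6 and 75.6 to 262, 255 and 269 CPM in Fes-/- cells (1.98 ± 0.11). In wild type Furin was higher in both conditions, going from 118, 149 and 123 to 670, 822 and 763 CPM (2.53 ± 0.12, difference -0.88 to -0.21). Iqgap1, a scaffold of the cell cortex, went from 1124, 1098 and 967 to 2563, 2698 and 2518 CPM (1.29 ± 0.09) and changed by 1.32 ± 0.09 in wild type (difference -0.30 to 0.24). Neither difference passed the test (adjusted p = 1.000 for both, edgeR, unadjusted p = 0.00341 for Furin and 0.814 for Iqgap1). Both genes were named after their values were seen.

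Replicates agreed closely for most strongly induced genes. Among 622 genes that rose at least 4-fold and had at least 100 CPM under LPS, the highest LPS library exceeded the lowest by a median factor of 1.105. The factor was over 2 for 6 genes, named after their values were seen. Il12b (2.69), Rgs1 (2.41) and Cxcl1 (2.22) were highest in LPS replicate 2, and Rnd1 (2.22), Ptges (2.01) and Src (2.00) in LPS replicate 3.

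A few genes set replicate 3 apart in both conditions, and these too were named after their values were seen. Apoe, which carries lipids, was at 479, 390.0 and 1359 CPM in PBS and 417, 338 and 1087 CPM in LPS libraries, highest in replicate 3 of each. Cd4 was at 1.61, 0.815 and 3.52 CPM and 0.694, 0.583 and 1.69 CPM, and the B cell gene Ighm at 12.5, 13.2 and 26.8 CPM and 2.57, 2.93 and 6.24 CPM. Interferon-stimulated antiviral genes held 0.367% of counts in PBS replicate 3, the lowest of the PBS libraries. What these libraries share was not tested.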
